A study of Mus musculus with 12 samples.

Results

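The CREB and ATF transcription factors measured here were Creb1, Creb3, Creb3l1, Creb5, Crem, Atf1, Atf2 and Atf7, 8 genes of the 17097 named on the arrays, read by 23 of the 45037 probesets (sets of short probes that together report 1 transcript) tested. A probeset was taken where its annotation names exactly 1 of these genes: 6 for Creb1, 2 for Creb3, 1 for Creb3l1, 5 for Creb5, 2 for Crem, 1 for Atf1, 4 for Atf2 and 2 for Atf7. The family was chosen by results of these same arrays, among which was a difference in Creb5 between the genotypes under TGF-β, higher in p38α∆ MSCs, so that difference is described here and no test of it is offered.

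The cells were mesenchymal stromal cells (MSCs) from mouse bone marrow, immortalized in culture, from mice that carry floxed alleles of Mapk14, the gene of the kinase p38α, and a tamoxifen-inducible Cre. p38α∆ MSCs were treated with 4-hydroxytamoxifen for 2 days to delete the floxed part of Mapk14, and WT MSCs were the same cells without it, so both genotypes carried the floxed alleles and the Cre. The strain label is FVB/NJ, while the methods give C57BL/6 J for the mice, and the labels give no age for the animals the cells came from. All cells were kept in 0.5% serum, and the treated groups received 5 ng/ml TGF-β for 20 h. There were 4 arrays of WT MSCs (numbered 1, 3, 4 and 4b), 3 of TGF-β-treated WT MSCs (1, 3 and 4), 2 of p38α∆ MSCs (1 and 3) and 3 of TGF-β-treated p38α∆ MSCs (1, 2 and 4). Nothing says that arrays of a group came from separate cultures, so their spread may be technical.

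CREB and ATF proteins are basic leucine zipper factors that bind as dimers to the cAMP response element (CRE) and related sites. Creb1, Crem and Atf1 form a group that is activated by phosphorylation downstream of cAMP, calcium and stress kinases, with Crem also giving rise to repressor forms. Atf2, Atf7 and Creb5 form a second group, whose members can pair with Jun proteins. Atf2 and Atf7 are phosphorylated by p38 and JNK kinases. Creb3 and Creb3l1 are held in the endoplasmic reticulum membrane and are released by cleavage, and Creb3l1 is known in bone-forming cells for its part in collagen secretion.

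Array medians lay between 4.22 and 4.27 on the log2 scale, and the 4 arrays numbered 1 stood apart from the other 8 on the first principal component, which held 50.6% of the variance. None of the 6 Mapk14 probesets passed the test between genotypes, with log2 differences from -0.18 to 0.02 in untreated cells and from -0.06 to 0.19 with TGF-β. Whether any of them lies in the deleted part is stated by no source used here, so for these arrays the genotype rests on the labels. According to the paper, immunoblotting of the immortalized cells showed the deletion of the kinase after tamoxifen treatment. That protein evidence is separate from the arrays. Of the 8 MSC markers measured, 7 were above the median level of all probesets, with Thy1 below it, against 0 of 6 endothelial, 1 of 5 leukocyte, 1 of 4 epithelial and 0 of 3 adipocyte markers. None of these markers passed the test between TGF-β-treated genotypes. With TGF-β, 2 of the 8 MSC markers and none of the others passed in p38α∆ MSCs, with Cd44 higher (0.68 ± 0.12) and Pdgfra lower (-0.77 ± 0.18). In WT MSCs Cd44 (0.70 ± 0.09) and Nt5e (0.49 ± 0.11) passed, both higher. The part of these markers in the responses below was not tested.

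Creb5 had the widest difference between TGF-β-treated genotypes among the 8 members. Its probeset 1440527_PM_at read 4.37, 4.54, 4.50 and 5.11 (log2 values) in WT MSCs, and 3.86, 4.22 and 4.19 once these were treated with TGF-β. In p38α∆ MSCs it read 4.50 and 4.55, which became 4.85, 5.83 and 5.89 with TGF-β. All 3 TGF-β-treated p38α∆ arrays were above all 3 TGF-β-treated WT arrays, while the untreated groups overlapped.

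The difference between TGF-β-treated genotypes in this probeset was 1.38 ± 0.21 (log2 fold change ± SE, 3 arrays against 3), which is 2.59-fold higher in p38α∆ MSCs, and the difference in untreated cells was 0.04 ± 0.22. Within the numbers that both treated groups share, it was 1.00 for arrays numbered 1 and 1.69 for arrays numbered 4. The array numbered 2 has no counterpart in the other groups. In bulk cultures such as these, fewer cells that express a gene and less of its RNA per cell cannot be told apart.

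The second Creb5 probeset of similar behaviour, 1457222_PM_at, comes from a different transcript record. It read 5.11, 5.00, 4.52 and 5.21 in untreated and 4.56, 4.62 and 4.88 in treated WT MSCs. In p38α∆ MSCs it read 4.91 and 5.13 untreated, and 5.44, 5.93 and 6.29 treated. These last 3 arrays were the highest of all 12. The difference between TGF-β-treated genotypes was 1.19 ± 0.21, or 2.29-fold, and 0.87 and 1.41 within numbers 1 and 4. The other 3 Creb5 probesets, 1440089_PM_at, 1442576_PM_at and 1446380_PM_at, gave 0.08 ± 0.15, 0.16 ± 0.09 and 0.05 ± 0.08, with groups that overlapped. The 5 Creb5 probesets therefore did not read alike, and no source used here says which transcripts each detects.

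**Figure D1:**
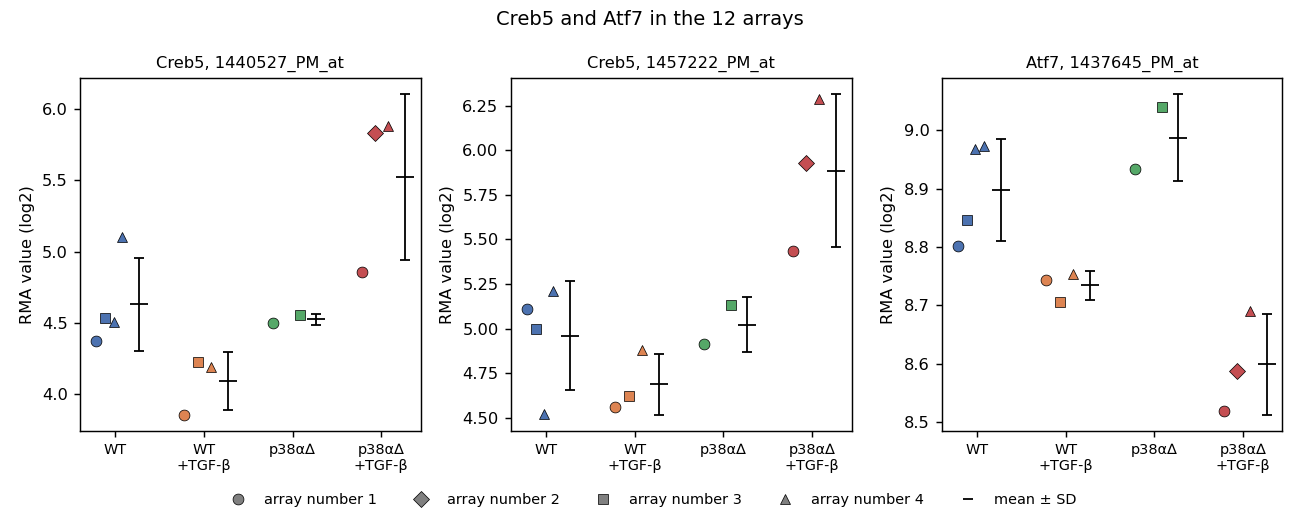
RMA values (log2) of Creb5 probesets 1440527_PM_at and 1457222_PM_at and of Atf7 probeset 1437645_PM_at in each of the 12 arrays, with 1 panel per probeset, 1 column per group, marker shapes for the array number (4b has the shape of 4) and bars for the mean ± SD. The 3 TGF-β-treated p38α∆ arrays are above every TGF-β-treated WT array in both Creb5 panels and below every other array in the Atf7 panel.

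The TGF-β responses of these Creb5 probesets had opposite signs in the 2 genotypes, and none of them passed the test, which was an adjusted p under 0.05 in limma over all 45037 probesets. In WT MSCs the response of 1440527_PM_at was -0.49 ± 0.18 (adjusted p = 0.177), with the groups not overlapping. In p38α∆ MSCs it was 0.84 ± 0.24 (adjusted p = 0.0699), again with no overlap. For 1457222_PM_at the responses were -0.25 ± 0.19 (adjusted p = 0.584) in WT MSCs and 0.81 ± 0.24 (adjusted p = 0.0893) in p38α∆ MSCs. Its WT groups overlapped, and within number 4 the WT difference was 0.01. The difference of responses was 1.33 ± 0.30 (adjusted p = 0.857) for the first and 1.06 ± 0.31 (adjusted p = 0.945) for the second. The treated arrays in these responses are those whose Creb5 difference chose the family. These values and the lack of overlap are therefore a description and no independent test.

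Of the 23 probesets, 1 was counted higher in p38α∆ than in WT MSCs under TGF-β (Creb5 1440527_PM_at), against 0.164% of all probesets, and 0 were counted lower, against 0.0222%. Nothing is read from that count, since the family was picked with it known. With the array number as a fixed replicate block the Creb5 difference was 1.28 and no longer counted, and it also dropped out when any 1 of 8 arrays was left out (TGF-β-treated WT 1, 3 or 4, p38α∆ 1 or 3, TGF-β-treated p38α∆ 2 or 4, or WT 3), with a log2 difference from 1.17 to 1.69 over all 12 such fits.

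Promoter letters are shown for Creb5, the member with this difference, because its 2 promoter windows hold different motifs. The starts used for these windows, from RefSeq (GRCm38.p6), lie 286 kb apart on the forward strand of chromosome 6. The 120 bases before each start are given 5′ to 3′, with the upstream one at chr6:53287183-53287302 and the downstream one at chr6:53573254-53573373. Capitals mark a CRE in the first and an AP-1 motif, the site of Fos and Jun dimers, in the second. The RefSeq gene itself begins at chr6:53287226, upstream of both starts used, so the CRE, from 53287258, lies within the annotated gene.
Creb5 upstream start: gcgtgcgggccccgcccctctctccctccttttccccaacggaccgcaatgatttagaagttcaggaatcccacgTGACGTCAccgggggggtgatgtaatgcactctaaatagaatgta
Creb5 downstream start: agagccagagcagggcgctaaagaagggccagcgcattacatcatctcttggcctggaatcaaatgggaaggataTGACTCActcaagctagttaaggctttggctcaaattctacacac

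Both motifs began at position -45 from the start used for their window. Windows of 250 bases before to 50 after the start were searched on both strands for the CRE (TGACGTCA), its core (TGACG, which the full CRE contains on both strands) and the AP-1 motif (TGACTCA). Of 32851 windows, 1.79% held the CRE, 20.8% the core and 5.20% the AP-1 motif. Windows were found for 6 of the 8 members, 7 windows in all. The CRE occurred only in the upstream Creb5 window and the AP-1 motif only in the downstream one, and the core occurred in the upstream Creb5 window and, at position -90, in that of Atf1. The windows of Creb1, Creb3, Atf2 and Atf7 held none of these letters, which says nothing about binding elsewhere.

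Atf7 fell with TGF-β in p38α∆ MSCs. Its probeset 1437645_PM_at read 8.80, 8.85, 8.97 and 8.97 in untreated and 8.74, 8.71 and 8.75 in treated WT MSCs. For p38α∆ MSCs the values were 8.93 and 9.04 untreated, and 8.52, 8.59 and 8.69 treated. In both genotypes every treated array was below every untreated one, and the treated p38α∆ arrays were the lowest of the 12.

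The Atf7 response was -0.42 ± 0.08 in p38α∆ MSCs (adjusted p = 0.00719, 3 arrays against 2), a level 1.34-fold lower, and -0.15 ± 0.06 in WT MSCs (adjusted p = 0.197, 3 arrays against 4). The difference of these responses was -0.27 ± 0.10 (adjusted p = 0.945). Within number 1, the sole number in both p38α∆ groups, the level was lower by 0.42 after treatment (8.93 untreated, 8.52 treated). The call was lost with the array number ignored (adjusted p = 0.0514), without the 4 arrays numbered 1 (adjusted p = 0.0561) and without p38α∆ array 3 (adjusted p = 0.0678). Atf7's other probeset, 1425653_PM_at, ranged from 3.35 to 3.83 over the 12 arrays, with a response of -0.05 ± 0.12 in p38α∆ MSCs.

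Of the 23 probesets, 0 rose and 1 fell with TGF-β in p38α∆ MSCs, against 2.43% and 2.78% of all probesets. In WT MSCs, 0 rose and 0 fell, against 2.94% and 3.06%, although 7 of the 23 and 7651 of all 45037 had an unadjusted limma p under 0.05. Between untreated genotypes 0 passed, as did 0% of all probesets, with 0 of the 23 and 2049 of all at an unadjusted p under 0.05. For the difference of responses 0 passed, against 0.00666% of all, with 3 of the 23 and 2224 of all at an unadjusted p under 0.05. The 3 were both Creb5 probesets above, whose difference is built in part from the values that chose the family, and Atf7 1437645_PM_at. The median log2 change of the 23 with TGF-β was -0.06 in WT MSCs and -0.05 in p38α∆ MSCs, beside 0.00 and -0.01 over all probesets.

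**Figure D2:**
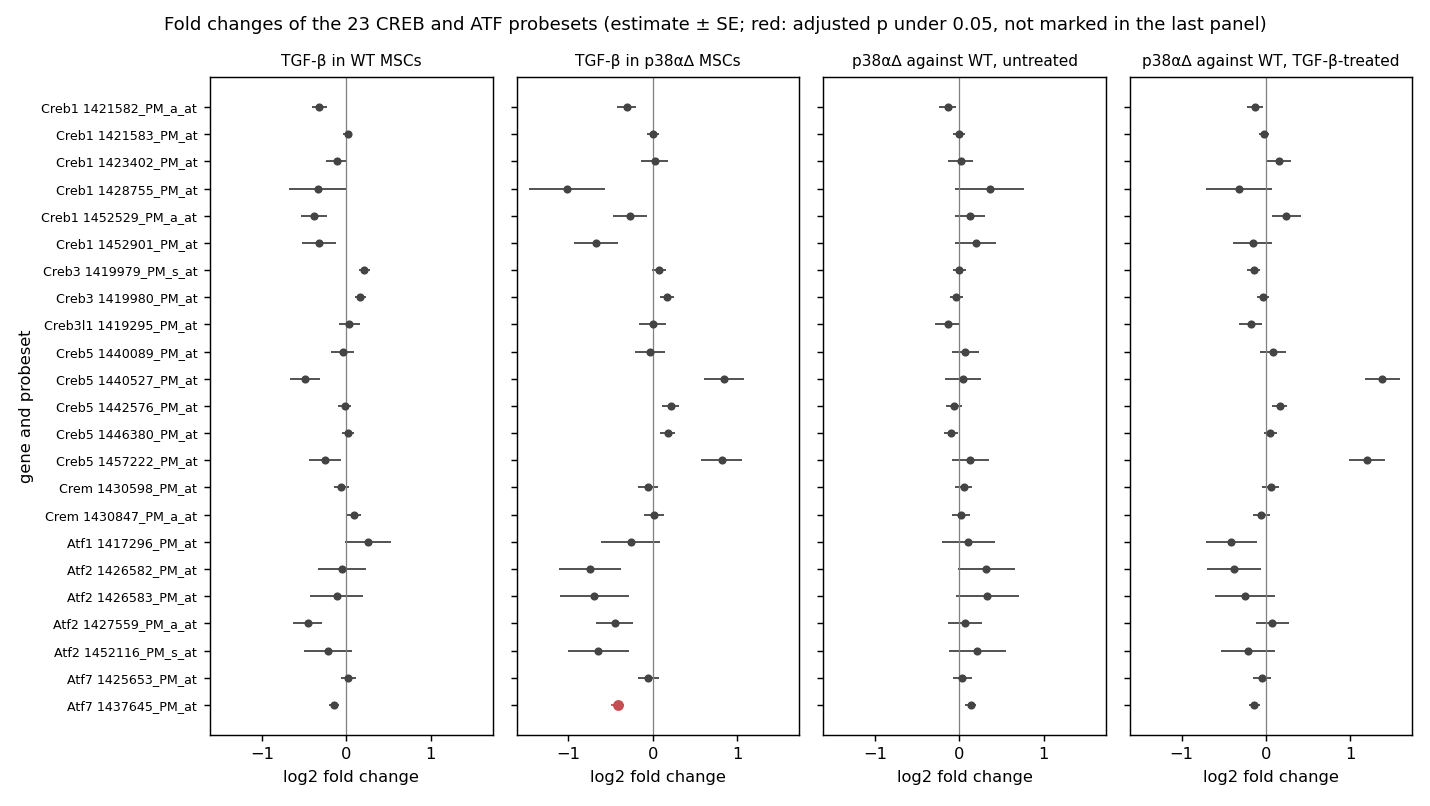
Log2 fold changes (points) with SE (bars) of the 23 probesets in 4 comparisons, from limma with the array number as a random block, red where the adjusted p was under 0.05. The 1 red point is Atf7 1437645_PM_at for TGF-β in p38α∆ MSCs (-0.42); no call is marked in the last panel, the comparison that chose the family, where Creb5 1440527_PM_at (1.38) and 1457222_PM_at (1.19) lie farthest from 0.

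Creb1, the factor the family is named for, came closest to passing in WT MSCs. Its probeset 1421582_PM_a_at read 6.69, 6.36, 6.25 and 6.30 in untreated and 6.29, 6.06 and 5.99 in treated WT MSCs. For p38α∆ MSCs the values were 6.37 and 6.34 untreated, and 6.25, 5.88 and 5.79 treated. The groups overlapped in WT MSCs and were separate in p38α∆ MSCs. The response was -0.32 ± 0.09 in WT MSCs (adjusted p = 0.0540) and -0.31 ± 0.11 in p38α∆ MSCs (adjusted p = 0.172), a difference of 0.01 ± 0.14. Over the alternatives the adjusted p in WT MSCs ran from 0.0315 (probesets at or above the median level) to 0.576 (no replicate block), with 0.0343 for a fixed replicate block. The other 5 Creb1 probesets ranged from 0.02 to -0.38 in WT MSCs and from 0.02 to -1.01 in p38α∆ MSCs, with adjusted p of at least 0.211. The widest of these, 1428755_PM_at (-1.01 ± 0.45 in p38α∆ MSCs), varied by number, as described below.

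Creb3, a factor of the endoplasmic reticulum membrane, read 9.19 to 9.41 in WT MSCs and 9.45, 9.57 and 9.53 after TGF-β in 1419979_PM_s_at, with no overlap. The response was 0.22 ± 0.07 in WT MSCs (adjusted p = 0.0952) and 0.07 ± 0.09 in p38α∆ MSCs (adjusted p = 0.766). The second Creb3 probeset, 1419980_PM_at, gave 0.17 ± 0.06 and 0.17 ± 0.08. Creb3l1 read 8.93 to 9.76 over the 12 arrays, with responses of 0.04 ± 0.12 and -0.00 ± 0.16. Its difference between TGF-β-treated genotypes was -0.18 ± 0.14 (adjusted p = 0.915).

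Crem stayed between 3.40 and 3.88 in 1430847_PM_a_at and between 2.90 and 3.28 in 1430598_PM_at, values under the median of 4.25 over all probesets. Its largest log2 difference in the 4 comparisons of groups was 0.09 ± 0.09, for TGF-β in WT MSCs.

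Atf2, a substrate of p38α and JNK, read 7.31, 7.65, 7.32 and 7.45 in untreated and 6.60, 7.31 and 6.96 in treated WT MSCs by 1427559_PM_a_at. For p38α∆ MSCs the values were 7.32 and 7.57 untreated, and 6.39, 7.18 and 7.44 treated. Treated and untreated groups overlapped in both genotypes. The responses were -0.46 ± 0.17 (adjusted p = 0.175) and -0.45 ± 0.22 (adjusted p = 0.347). The other 3 Atf2 probesets were designed from 1 transcript record and are not independent. They gave -0.05 to -0.22 in WT MSCs and -0.64 to -0.75 in p38α∆ MSCs, with SE from 0.28 to 0.41 and adjusted p of at least 0.349.

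In Atf1, which pairs with Creb1, and in these 3 Atf2 probesets the array number separated the arrays where treatment and genotype did not. Atf1 read 6.92, 7.47, 7.18 and 6.54 in the arrays numbered 1 of WT, TGF-β-treated WT, p38α∆ and TGF-β-treated p38α∆ MSCs, and 8.04 to 8.63 in the other 8. Atf2 1426583_PM_at read 5.10 to 5.69 against 6.50 to 7.60, a mean difference of -1.53. For 1426582_PM_at the ranges were 5.53 to 6.66 and 6.80 to 7.84, and for 1452116_PM_s_at they were 4.72 to 5.54 and 5.99 to 7.14. These 4 probesets were lower in all arrays numbered 1 than in any other array, as were 10.5% of all probesets. Creb5 1440089_PM_at (4.26 to 4.47 against 3.60 to 3.96) and Crem 1430847_PM_a_at (3.84 to 3.88 against 3.40 to 3.61) were higher in all of them, as were 10% of all. Each group holds 1 array numbered 1, and what the number stands for and the cause of this shift were not tested.

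**Figure D3:**
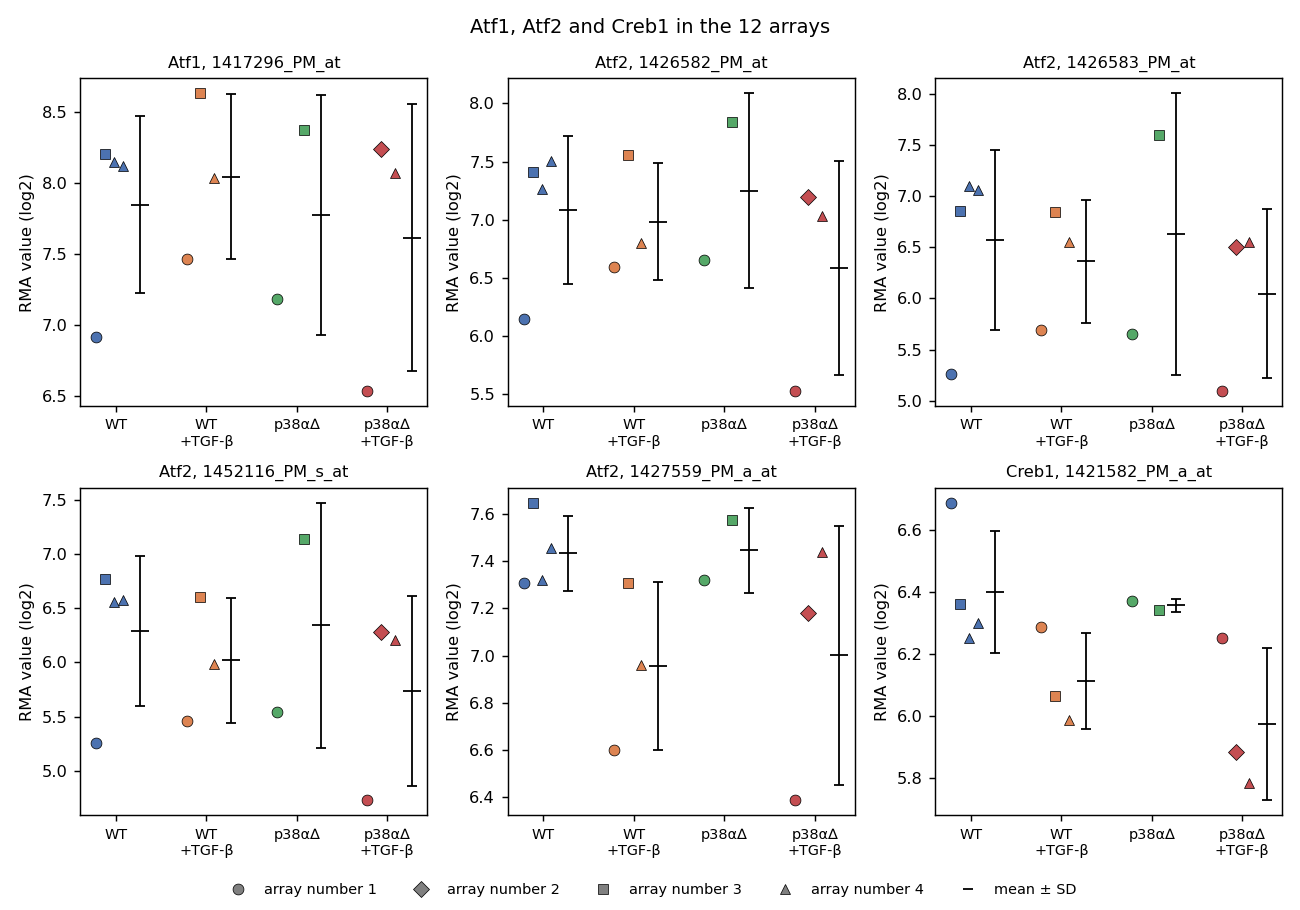
RMA values (log2) of Atf1, of the 4 Atf2 probesets and of Creb1 1421582_PM_a_at in the 12 arrays, with 1 column per group, circles for the arrays numbered 1 and bars for the mean ± SD. In Atf1 and in Atf2 1426582_PM_at, 1426583_PM_at and 1452116_PM_s_at every circle lies below every other point, which widens the SD of each group.

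Atf1 gave 0.26 ± 0.27 with TGF-β in WT MSCs (adjusted p = 0.715) and -0.26 ± 0.35 in p38α∆ MSCs (adjusted p = 0.797). The 95% interval of the WT response ran from -0.33 to 0.85, so a change within that range could not be told from none. Creb1 1428755_PM_at and 1452901_PM_at, designed from 1 transcript record, varied in the same way, with mean differences of -1.49 and -0.85 for the arrays numbered 1, though their ranges overlapped with the other 8.

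Among 13 other CREB and ATF family genes measured of 14 listed, read by the probeset of highest mean level, 1 rose with TGF-β in both genotypes and 0 fell. It was Creb3l2, a relative of Creb3l1 that supports secretion in cartilage, with 0.97 ± 0.07 in WT MSCs (adjusted p = 7.72e-06) and 1.19 ± 0.09 in p38α∆ MSCs (adjusted p = 1.50e-05). The median change of the 13 was -0.04 and -0.01. Of 5 coactivators and cofactors measured of 6, Atf7ip, a chromatin cofactor first described by its binding to Atf7, fell by 0.55 ± 0.10 (adjusted p = 0.00758) and by 0.72 ± 0.13 (adjusted p = 0.00779), and 0 rose. None of these 18 genes passed between genotypes, treated or untreated. With TGF-β, 2.94% of all probesets rose and 3.06% fell in WT MSCs, and 2.43% rose and 2.78% fell in p38α∆ MSCs.

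Of 23 upstream kinases and regulators measured of 27, 1 rose and 2 fell in WT MSCs, and 2 rose and 4 fell in p38α∆ MSCs. Of all probesets, 2.94% rose and 3.06% fell in WT MSCs, and 2.43% rose and 2.78% fell in p38α∆ MSCs. Mapkapk2, the p38α-activated kinase MK2, rose by 0.48 ± 0.08 (adjusted p = 0.00378) and 0.74 ± 0.10 (adjusted p = 0.00159). Prkar2b, a regulatory subunit of protein kinase A, fell by 0.94 ± 0.14 (adjusted p = 0.00170) and 0.98 ± 0.18 (adjusted p = 0.00801). Sik2 and Sik3, kinases that hold back CREB coactivators, fell in p38α∆ MSCs by 0.61 ± 0.14 (adjusted p = 0.0256) and 0.78 ± 0.17 (adjusted p = 0.0211). Camk2d, a calcium-dependent kinase, fell in WT MSCs (-0.52 ± 0.06, adjusted p = 0.000371). In p38α∆ MSCs Rps6ka5, the CREB kinase MSK1, fell (-0.61 ± 0.13, adjusted p = 0.0158) and Mapk14 itself rose (0.38 ± 0.09, adjusted p = 0.0286). Sik2, Sik3, Rps6ka5 and Mapk14 did not pass in WT MSCs, with -0.37 ± 0.11, -0.12 ± 0.13, -0.30 ± 0.10 and 0.18 ± 0.07. Camk2d did not pass in p38α∆ MSCs (-0.26 ± 0.08). Each value had the same sign as in the genotype that passed. The difference of responses passed for 0 of the 23 genes, so none is shown to respond in only 1 genotype.

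Of the known CREB target genes, 22 measured of 25, most did not pass the test with TGF-β, 16 in WT MSCs and 15 in p38α∆ MSCs. In WT MSCs 2 rose (Fosb and Ptgs2) and 4 fell (Btg2, Rgs2, Bcl2 and Cited2), with a median change of -0.05, beside 2.94% and 3.06% of all probesets. In p38α∆ MSCs 6 rose (Fos, Fosb, Junb, Egr1, Ptgs2 and Nfil3) and 1 fell (Cited2), with a median of 0.05, beside 2.43% and 2.78% of all probesets. Ptgs2, the inducible cyclooxygenase, rose by 1.76 ± 0.23 and 2.35 ± 0.30 (adjusted p = 0.000794 and 0.000865). Of 10 known ATF2 and JUN target genes, 2 rose (Jun and Plau) and 1 fell (Ccnd1) in WT MSCs, and 3 rose (Jun, Plau and Hspa5) and 0 fell in p38α∆ MSCs. Plau encodes urokinase, Ccnd1 cyclin D1 and Hspa5 a chaperone of the endoplasmic reticulum. The same shares of all probesets, 2.94% and 3.06% in WT MSCs and 2.43% and 2.78% in p38α∆ MSCs, stand beside this second list. Both lists were chosen with earlier results of these arrays known and take a single probeset per gene, so no excess is read from the counts. A difference between these counts was not itself tested. The difference of responses passed for 0 of the 22 and 0 of the 10 genes, so no gene is shown to respond in only 1 genotype. In p38α∆ MSCs Btg2, Rgs2, Bcl2 and Ccnd1 gave -0.65 ± 0.17, -0.11 ± 0.14, -0.47 ± 0.16 and -0.22 ± 0.10. In WT MSCs Fos, Junb, Egr1, Nfil3 and Hspa5 gave -0.26 ± 0.17, 0.39 ± 0.18, -0.05 ± 0.15, 0.14 ± 0.11 and 0.18 ± 0.09.

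Between the TGF-β-treated genotypes, 2 of the 22 CREB targets and 2 of the 10 ATF2 and JUN targets were higher in p38α∆ MSCs and 0 were lower, beside 0.164% higher and 0.0222% lower of all probesets. The list medians, over the probeset of highest mean of each gene, were 0.20 and 0.49, and the median over all probesets was -0.01. The lists were chosen with earlier results of these arrays known. They take a single probeset per gene, while the shares are over all probesets, unnamed and low ones included. No excess of targets is therefore read from these counts or medians. Fos read 4.69, 5.45 and 5.53 in WT MSCs with TGF-β against 6.19, 6.70 and 6.31 in p38α∆ MSCs with TGF-β, a difference of 1.22 ± 0.20 (adjusted p = 0.0394). Fosb read 5.34, 5.01 and 5.17 against 5.86, 6.33 and 6.27, a difference of 0.92 ± 0.14 (adjusted p = 0.0299). Fos and Fosb encode AP-1 subunits. Jun, which pairs with them and with Atf2, read 7.33, 7.28 and 7.57 against 8.06, 8.48 and 8.38, a difference of 0.89 ± 0.11 (adjusted p = 0.0122).

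Dusp10, a phosphatase of p38 and JNK kinases, read 6.83, 6.88 and 6.78 against 7.44, 7.64 and 7.65, a difference of 0.74 ± 0.11 (adjusted p = 0.0278). In all 4 genes the treated genotypes did not overlap, which adds no evidence, since these genes were named for passing this comparison. In untreated cells their differences were -0.43 ± 0.21 for Fos, 0.11 ± 0.15 for Fosb, -0.02 ± 0.11 for Jun and 0.08 ± 0.11 for Dusp10, with adjusted p of at least 0.987. The difference of responses did not pass for any of the 4 (adjusted p of at least 0.487).

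**Figure D4:**
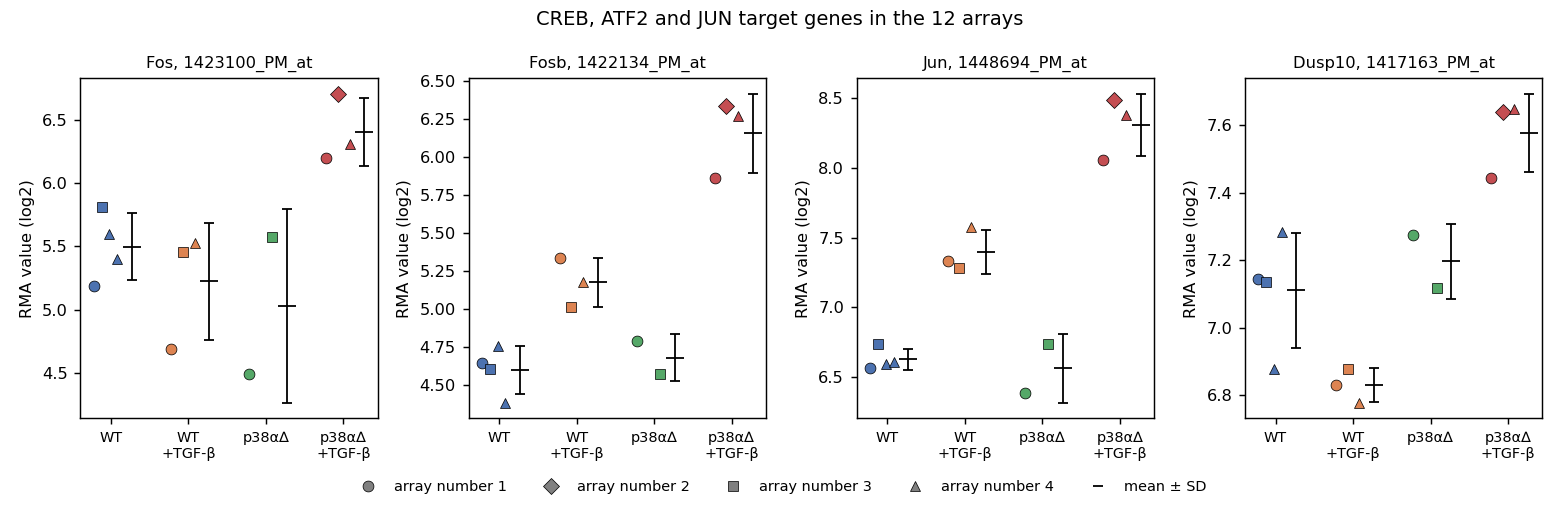
RMA values (log2) of the CREB, ATF2 and JUN target genes Fos, Fosb, Jun and Dusp10 in the 12 arrays, with 1 column per group, marker shapes for the array number and bars for the mean ± SD. In each panel the 3 p38α∆ arrays with TGF-β are higher than the 3 WT arrays with TGF-β, with differences of 1.22, 0.92, 0.89 and 0.74. The genes are shown because they passed this comparison.

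The genes whose values ran most like a member's were found by Pearson's r over the 12 arrays among 10645 genes, and are a description, since the arrays share groups and numbers. For Atf7 1437645_PM_at they were D2hgdh (r = 0.95), Tm7sf2 (r = 0.95) and 5930403N24Rik (r = 0.94), with r of 0.93, 0.98 and 0.97 over the 8 arrays not numbered 1. For Creb5 1440527_PM_at, added after its values were seen, they were Dusp10 (r = 0.90), Hivep2 (r = 0.89) and P2rx5 (r = 0.88), with r of 0.97, 0.92 and 0.93 over those 8.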

How the data were processed

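RNA from mouse MSCs was amplified (TransPlex WTA2) and hybridized to Affymetrix MG-430 PM arrays. The deposited values are log2 expression from RMA, which the authors ran with affy and affyPLM; RMA makes array distributions alike and compresses low signals. Control probesets (64) were left out of 45101. Of the rest, 28898 probesets name 1 gene, 551 several and 15588 none.

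Differences were fitted on all 45037 probesets with limma 3.58.1 (lmFit, contrasts.fit, eBayes) in R 4.3.3, with group means and the array number as a random block (duplicateCorrelation, estimated correlation 0.46), and Benjamini-Hochberg adjustment; the two-sided threshold was an adjusted p of 0.05. The number is from the titles, with 4b taken as number 4. Deviations of same-numbered arrays from their group means correlated at 0.11 to 0.84, and at 0.11 to 0.39 for number 4. Differently numbered arrays were not compared, and those numbered 1 stood apart, so this cannot show that the number pairs arrays. Without the arrays numbered 1 the estimated correlation was 0.11. The authors' model held the scanning batch, which the labels do not give. Lists used each gene's probeset of highest mean. The script was tested on simulated data.

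All 8 members are named. List genes are named where they passed, and the 3 genes of highest r for members that passed by their probeset of highest mean. Members, lists and rules were chosen with earlier results of these data known. Promoters came from RefSeq (GRCm38.p6), and 28689 of the probesets with 1 gene matched RefSeq by Entrez ID. Alternatives covered the block, arrays numbered 1, array 4b, the samples fitted, low values, probesets per gene, scaling, the variance prior and leaving out each array. The number of arrays limits the precision.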

Additional observations from a re-analysis of the deposited data

Results flagged for a closer look

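Among the 4 arrays of WT MSCs, the only group large enough for a test of a single array, array 1 lay far from the other 3 in 4 of 23 probesets (17.4%). Chance flags about 1 in 20, but array 1 of WT MSCs stood out in the same way in 9.49% of all 45037 probesets, and both Atf2 probesets here come from 1 transcript record, so the 4 are not read as an excess. Atf1 read 6.9184, with the nearest other WT array at 8.1203. Atf2 1426583_PM_at read 5.2573 (nearest 6.8552) and Atf2 1452116_PM_s_at read 5.2573 (nearest 6.5559). Crem 1430847_PM_a_at read 3.8529 (nearest 3.4906), the one of the 4 that was higher. The arrays numbered 1 of the other groups were on the same side in these 4 probesets.

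In Creb5 probesets 1440527_PM_at and 1457222_PM_at the TGF-β response had opposite signs in the 2 genotypes, though none of these responses passed the test. Not all Creb5 probesets did so, with 1440089_PM_at at -0.04 ± 0.13 in WT and -0.03 ± 0.18 in p38α∆ MSCs. The response in p38α∆ MSCs minus that in WT MSCs was 1.3319 for 1440527_PM_at and 1.0621 for 1457222_PM_at, and the test of that difference did not pass for either (adjusted p = 0.857 and 0.945 in limma). Both differences are built in part from the values that chose the family.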

How the results depend on the processing

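The number of member probesets that passed was 0 under every alternative fitted for the untreated genotypes and for the difference of responses. For TGF-β in WT MSCs (0 passed) it was 1 with a fixed replicate block, with only the arrays of the groups compared, with probesets at or above the median level and with the probeset of highest mean per gene, and 0 to 3 when each array was left out. For TGF-β in p38α∆ MSCs (1 passed) it was 0 with no replicate block, 3 without the arrays numbered 1, and 2 with arrays 4 and 4b averaged, with probesets at or above the median level, with the probeset of highest median absolute deviation or with a second quantile normalization, and 0 to 3 when each array was left out. Creb5 was among the added probesets without the arrays numbered 1, with arrays 4 and 4b averaged and at or above the median level. It was also among them with the highest median absolute deviation. Its treated p38α∆ values are part of what chose the family. For the TGF-β-treated genotypes the count is a description, since it was always of Creb5, whose difference there chose the family. From 1 it became 0 with no replicate block and with a fixed replicate block, 2 with arrays 4 and 4b averaged, probesets at or above the median level, a second quantile normalization or a trended robust prior, and 0 to 2 when each array was left out. With only the arrays of the groups compared, 1457222_PM_at of Creb5 was counted in place of 1440527_PM_at. The cause of these shifts was not tested.

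For the 9 probesets followed (the highest mean of each gene, and Creb5 1440527_PM_at), of 943 refitted differences that had not passed, 61 changed sign (the largest was 0.26 in size) and 28 passed. Called differences did not change sign. Groups of 2 to 4 arrays limit all of this, and leaving out a p38α∆ array leaves 1, assumed to vary like the other groups. Fits on only the groups compared could not be made for TGF-β in p38α∆ MSCs or for the difference of responses.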
